A study of Brassica oleracea with 12 samples.

Results

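The clock and light-response genes described here are 64 of the 45714 entries in the deposited expression table of a bicolor kale. They were taken by their gene ontology terms: an entry needed a term with circadian, photoperiodism, far-red or blue light in its name, or the gene name GI, and no term naming anthocyanin, flavonoid, thylakoid, photosystem or auxin-activated. In all, 88 entries carried such a term or name, 10 were left out by an excluded term, and 14 of the remaining 78 did not reach 1 FPKM (fragments per kilobase of transcript, scaled to the mapped fragments of the library) in at least 3 of the 12 libraries. Of the 64 genes, 23 carry a circadian term, 24 a photoperiodism term, 11 a far-red term and 14 a blue light term, and 6 carry more than 1 of these. An informative symbol is lacking for 26 of them, which are called by their locus names.

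Leaves of the cultivar JC007-2B (Brassica oleracea var. acephala) were sampled at 3 stages, and poly(A) RNA was sequenced in 3 libraries for each of 4 groups. S1 is the whole leaf without veins while the leaf is red, and S2 is the same kind of sample after the margins have turned green around a red center. At S3 the green margin (S3_S) and the red center (S3_C) were taken apart. No treatment or mutation is given, the time of day of sampling is not in the labels, and nothing in the labels ties the libraries of a group to separate plants. The p-values therefore measure the spread between these libraries alone, which may be technical.

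In the plant circadian clock, morning MYB factors such as CCA1 repress evening genes such as GI and the pseudo-response regulators, which in turn repress the morning genes, so that transcripts of clock genes rise and fall over the day. Phytochromes detect red and far-red light and phototropins detect blue light. Phytochrome signals act through the COP1 and SPA ubiquitin ligase, transcription factors and the photoperiod pathway, in which GI leads through CONSTANS to flowering. The functions below are those known for the Arabidopsis genes of the same name or of the Arabidopsis identifier that the table gives.

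The FPKM values of a library summed to between 426981 and 470320, and 19.7% to 23.3% of all entries were listed at 0. Absolute depth is unknown. Depth relative to the deepest library, read from the steps between values under 0.15 FPKM, lay between 0.665 and 1. S1 replicate 1 and S3_S replicate 3 stood apart from their groups. Across all 27272 tested genes S1 replicate 1 had a correlation on the log2 scale of 0.749 and 0.761 with the other S1 libraries but of 0.911 with S2 replicate 1, a description with no test. It lay closer to the S2 mean than to the other S1 libraries in 54 of the 64 genes (84.4%) and in 78.8% of all tested genes. S3_S replicate 3 lay closer to S1 replicates 2 and 3 than to the other S3_S libraries in 41 of the 64 (64.1%), and in 57.5% of all tested genes. Whether these libraries carry the right label was not tested, and a wrong label on S1 replicate 1 would alter every comparison with S1. Counts of called genes and some single results are given with and without these libraries, and the other results only with them.

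Levels of the 64 genes differed more from gene to gene than from group to group. The mean over 12 libraries was at least 10 FPKM for 35 genes and under 2 FPKM for 9. The highest of the 4 group means was less than 1.5 times the lowest in 31 genes (48.4%), against 33.3% of all tested genes, and at least 3 times the lowest in 12 genes (18.8%), against 23.0% of all tested genes. The share of a gene's variance on the log2 scale that lay between groups had a median of 29.7% for the 64 genes and 34.9% for all tested genes. The 64 genes were also more abundant, with a median level of 11.6 FPKM against 5.49 FPKM over all tested genes. These shares were not matched for level. S3_C held the lowest group mean in 25 genes (39.1%, against 42.2% of all tested genes) and S1 in 22 (34.4%, against 25.2%). S1 and S3_S each held the highest group mean in 18 genes (28.1%), against 38.9% of all tested genes for S1 and 26.6% for S3_S. S3_C replicate 2 alone held the lowest of the 12 values in 18 genes and the highest in 9, and these shares were not computed for all tested genes. This library was low over the whole table too. Its median deviation from the gene means on the log2 scale was -0.25 over all tested genes and -0.32 over the 64 genes. S3_C replicate 1 and S2 replicate 3 were low over all tested genes as well, at -0.22 and -0.16. Over the 64 genes both stood at -0.09.

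**Figure D1:**
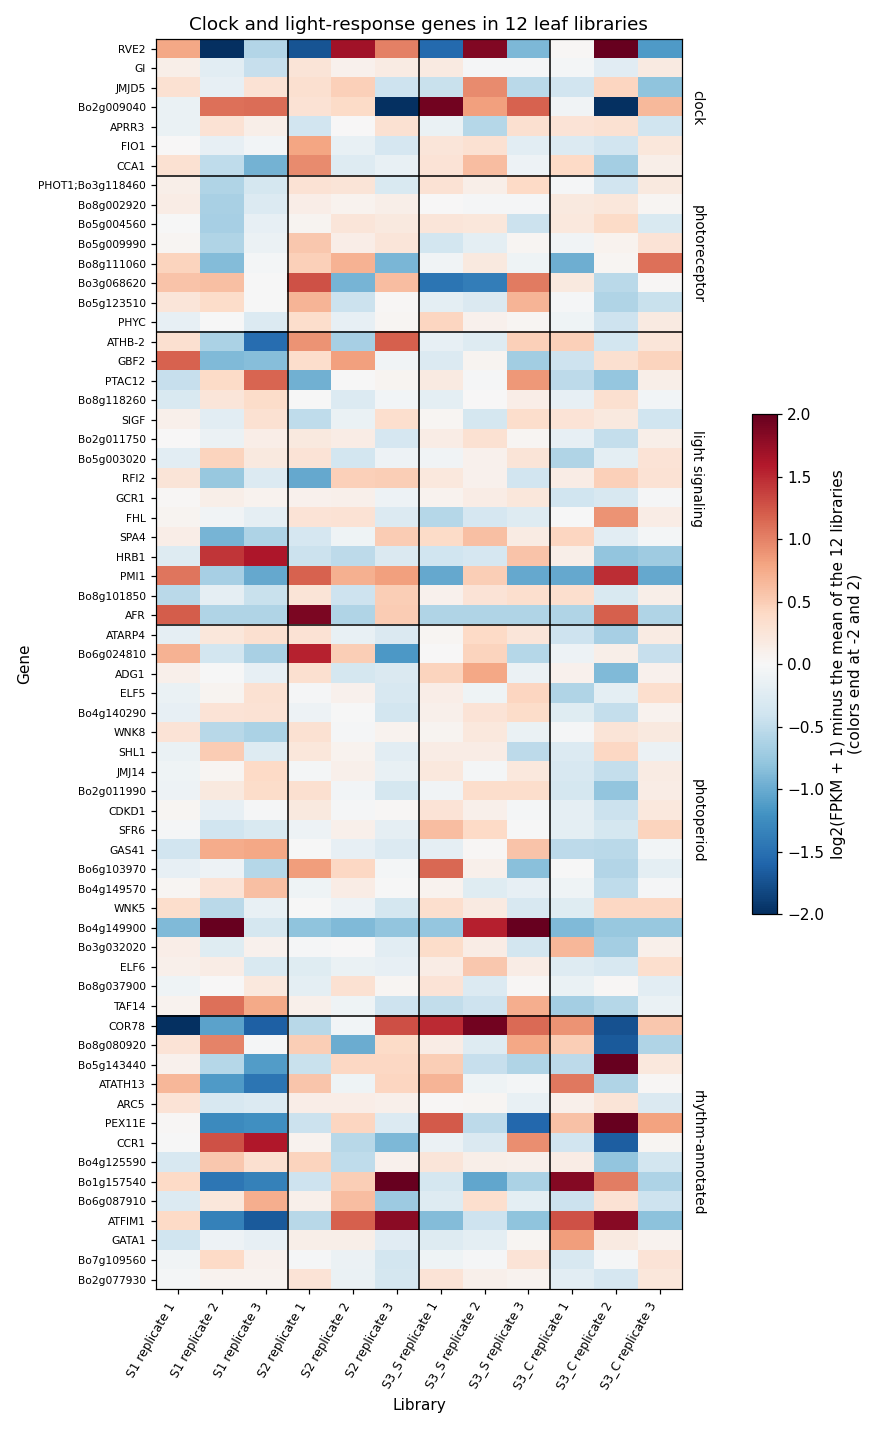
Level of each of the 64 genes (rows, grouped by role) in each of the 12 libraries (columns), as log2(FPKM + 1) minus the gene's mean over the libraries, with colors ending at -2 and 2. Most rows are pale, the S1 column of replicate 1 differs from the other S1 columns in HRB1, CCR1 and GBF2, and RVE2, COR78 and PEX11E hold some of the strongest colors.

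Among the 7 clock genes, GIGANTEA (GI, AT1G22770), an evening gene of the clock that also acts in the photoperiod pathway, had nearly the same level in every group. GI had 27.6, 21.6 and 18.0 FPKM in S1, 30.2, 26.9 and 28.5 FPKM in S2, 28.8, 24.8 and 24.8 FPKM in S3_S, and 24.5, 21.5 and 28.7 FPKM in S3_C. The highest of the 12 values was 1.68 times the lowest, and the groups overlapped in all 6 comparisons. In bulk samples such as these, fewer cells of a type and less RNA per cell cannot be told apart. GI averaged 28.5 ± 1.69 FPKM in S2 and 22.4 ± 4.84 FPKM in S1 (SD, n = 3 each), a log2 difference of 0.36 (SE 0.20, limma, adjusted p = 0.424), and this was its widest difference. Without single libraries it lay between 0.22 and 0.51.

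CCA1, the morning MYB factor that represses evening genes, was low, with a mean over 12 libraries of 1.83 FPKM. It had 2.26, 0.876 and 0.375 FPKM in S1, 4.09, 1.22 and 1.41 FPKM in S2, 2.19, 3.06 and 1.47 FPKM in S3_S, and 2.48, 0.661 and 1.87 FPKM in S3_C. The groups overlapped in every comparison, and the highest value lay in S2 replicate 1 and the lowest in S1 replicate 3. The widest of its log2 differences was 0.64 (SE 0.43, limma, adjusted p = 0.833) in S3_S against S1.

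RVE2, a MYB-like relative of CCA1, had the largest SD on the log2 scale after Bo2g009040, with a highest value 46.3 times its lowest. It had 26.8, 2.42 and 9.76 FPKM in S1, 3.86, 50.6 and 31.4 FPKM in S2, 4.51, 57.4 and 7.63 FPKM in S3_S, and 15.5, 112 and 6.41 FPKM in S3_C. Within every group the highest library exceeded the lowest by a larger factor than the highest group mean exceeded the lowest, and no comparison separated the groups.

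Bo2g009040 carries the Arabidopsis identifier AT5G08330, a TCP transcription factor that binds the CCA1 promoter. It had 10.3, 25.7 and 25.9 FPKM in S1, 14.2 and 15.2 FPKM in S2 replicates 1 and 2, 46.4, 20.8 and 27.1 FPKM in S3_S, and 10.9 and 18.4 FPKM in S3_C replicates 1 and 3. It was listed at 0 in S2 replicate 3 and S3_C replicate 2. The S3_S libraries lay above all S3_C libraries and above all S2 libraries. No fold is given, because a value listed at 0 may be a failed estimate.

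APRR3, a pseudo-response regulator that protects the clock protein TOC1 from degradation, lay between 8.63 and 16.9 FPKM, with group means of 14.4 ± 2.19 in S1, 13.4 ± 3.41 in S2, 12.5 ± 4.16 in S3_S and 14.3 ± 3.85 in S3_C (SD, n = 3 each). JMJD5, a jumonji oxygenase that acts on clock period, spanned 11.8 to 41.9 FPKM, and its highest value was in S3_S replicate 2, where the other S3_S libraries had 15.3 and 14.3 FPKM. FIO1, a methyltransferase whose loss lengthens the period, lay between 2.03 and 5.83 FPKM. These genes overlapped between the groups in all 6 comparisons, and their widest log2 difference was -0.40 (SE 0.44, limma, adjusted p = 0.593) for JMJD5 in S3_C against S1.

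**Figure D2:**
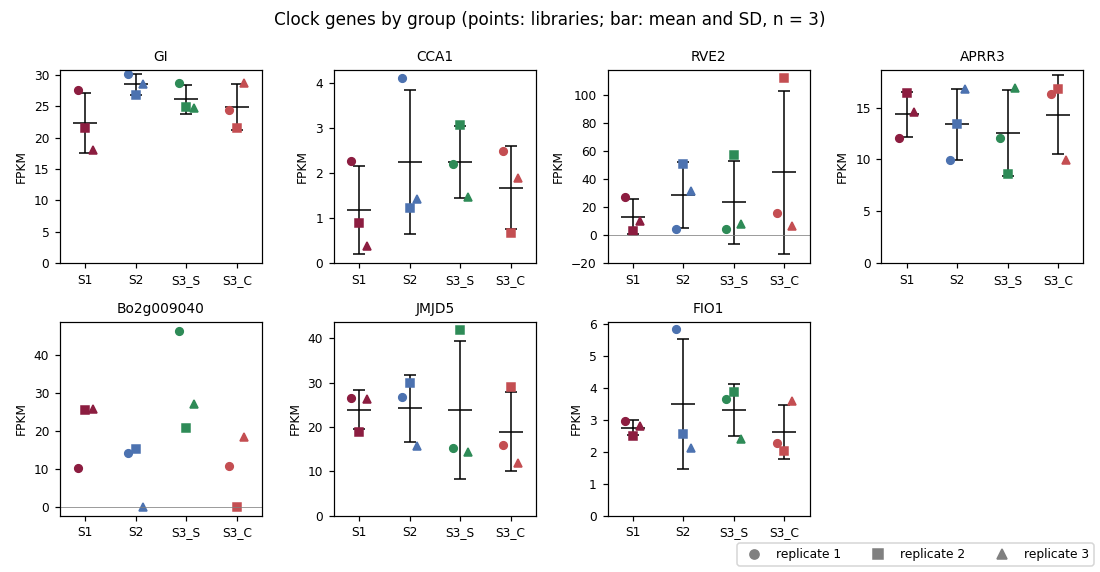
FPKM of the 7 clock genes by group, with 1 point per library (shape gives the replicate number) and a bar for mean and SD (n = 3), left out for Bo2g009040, which is listed at 0 in 2 libraries. The GI points lie between 18.0 and 30.2 FPKM, while RVE2 ranges from 2.42 to 112 FPKM with wide spread inside every group.

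The 8 photoreceptor genes were the phototropin entry, PHYC, 4 loci described as phytochromes and 2 loci annotated with blue light photoreceptor activity. The entry PHOT1;Bo3g118460 merges phototropin 1, the blue light receptor of phototropism and chloroplast movement, with a neighbouring locus, so its level belongs to both. It was the second most abundant of the set after COR78 and had 137, 122 and 147 FPKM in S3_S against 122, 73.2 and 87.5 FPKM in S1. The lowest S3_S library lay just above the highest S1 library, which is S1 replicate 1. Its log2 difference in S3_S against S1 was 0.55 (SE 0.28, limma, adjusted p = 0.824).

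The 2 loci annotated with blue light photoreceptor activity had highest values 1.86 (Bo8g002920) and 2.08 (Bo5g004560) times their lowest. Bo8g002920 had 85.8, 49.0 and 64.1 FPKM in S1, 84.7, 81.6 and 84.5 FPKM in S2, 78.1, 76.1 and 75.9 FPKM in S3_S, and 89.0, 91.2 and 79.9 FPKM in S3_C. The S3_S libraries thus lay below all S3_C and all S2 libraries, although the log2 difference of S3_S against S3_C was -0.17 (SE 0.22, limma, adjusted p = 0.737). After median-of-ratios scaling it was -0.40 (adjusted p = 0.562), and S3_S and S3_C overlapped. Bo5g004560 had 58.9, 67.4 and 65.2 FPKM in S2 against 56.6, 35.4 and 50.7 FPKM in S1, a log2 difference of 0.44 (SE 0.28, limma, adjusted p = 0.456), without overlap as deposited but with overlap after median-of-ratios scaling.

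Of the phytochrome genes, Bo5g009990 was the most abundant. It had 35.2, 26.5 and 28.6 FPKM in S2 against 24.7, 15.5 and 22.1 FPKM in S1, so that every S2 library was above every S1 library. The log2 difference was 0.53 (SE 0.22, limma, unadjusted p = 0.0342, adjusted p = 0.403). In S3_S it had 18.4, 20.8 and 24.6 FPKM, all below the S2 libraries, and in S3_C 22.9, 25.3 and 29.1 FPKM. PHYC, a light-stable phytochrome, was low and had 3.07, 2.18 and 2.10 FPKM in S3_S against 1.67, 1.98 and 1.48 FPKM in S1, without overlap, a log2 difference of 0.34 (SE 0.24, limma, adjusted p = 0.833). The other phytochrome loci were more scattered. Bo3g068620 ranged from 1.04 to 12.7 FPKM, both extremes of S3_S being far apart at 1.04 and 10.6 FPKM, Bo8g111060 from 4.83 to 23.6 FPKM with both extremes in S3_C, and Bo5g123510 from 1.71 to 5.64 FPKM.

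**Figure D3:**
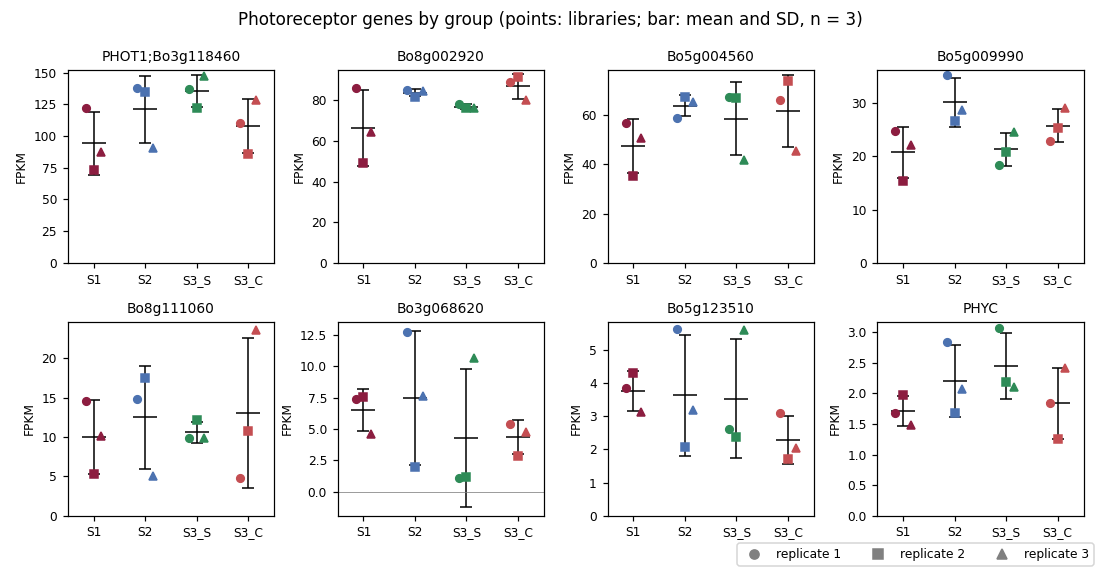
FPKM of the 8 photoreceptor genes by group, with 1 point per library (shape gives the replicate number) and a bar for mean and SD (n = 3). The S2 libraries of Bo5g009990 (26.5 to 35.2 FPKM) lie above the S1 libraries (15.5 to 24.7 FPKM), and Bo3g068620 and Bo8g111060 scatter inside the groups.

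The 15 light signaling genes held several of the clearest contrasts. FHL, which carries phytochrome A into the nucleus, had 3.84, 4.72 and 5.02 FPKM in S3_S against 6.16, 12.4 and 6.97 FPKM in S3_C. All S3_S libraries lay below all S3_C libraries and also below the S1 libraries, which had 6.43, 5.81 and 5.34 FPKM. The log2 difference of S3_S against S3_C was -0.73 (SE 0.27, limma, unadjusted p = 0.0185, adjusted p = 0.476). Without single libraries it lay between -0.91 and -0.46.

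GCR1, a receptor-like protein annotated to blue light signaling, had a small spread over the 12 libraries, with a highest value 1.62 times the lowest. It had 10.9, 11.6 and 12.2 FPKM in S3_S against 7.54, 8.04 and 10.2 FPKM in S3_C. The S1 libraries had 10.5, 11.3 and 10.9 FPKM, again all above S3_C. S3_S and S3_C differed by 0.40 on the log2 scale (SE 0.17, limma, unadjusted p = 0.0389, adjusted p = 0.476), and by 0.19 after median-of-ratios scaling (adjusted p = 0.592).

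SPA4, a partner of the COP1 ubiquitin ligase, had 4.38, 5.20 and 3.61 FPKM in S3_S against 3.5, 1.17 and 1.67 FPKM in S1. The lowest S3_S library (replicate 3) lay just above the highest S1 library (replicate 1). The log2 difference was 0.86 (SE 0.33, limma, unadjusted p = 0.0242, adjusted p = 0.824), and with these libraries left out it was 1.27 (adjusted p = 0.0469). These libraries held the nearest values of the groups, so leaving them out widens the difference by construction. That fit called 11.3% of all tested genes, so its adjusted p is no independent support.

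HRB1, a regulator of red and blue light responses, had 1.25, 1.10 and 1.47 FPKM in S2 against 1.52, 7.13 and 8.27 FPKM in S1. The S1 libraries did not overlap with S2, but S1 replicate 1 was close to the S2 level and the other S1 libraries were several times higher. In S3_S it had 1.29, 1.39 and 3.5 FPKM, the highest in S3_S replicate 3, and in S3_C 2.27, 0.741 and 0.854 FPKM. In S2 against S1 the log2 difference was -1.34 (SE 0.48, limma, unadjusted p = 0.0179, adjusted p = 0.403), and without S1 replicate 1 it was -1.94 (adjusted p = 0.0111). That library held the S1 value nearest to S2, so leaving it out widens the difference by construction. The fit without it called 15.6% of all tested genes.

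ATHB-2, a homeodomain factor induced by shade, and GBF2, a bZIP factor that binds the G-box, were the most abundant named light signaling genes and varied widely within groups. ATHB-2 had 67.3, 22.1 and 82.2 FPKM in S2 against 44.3, 22.5 and 11.7 FPKM in S1, a log2 difference of 1.09 (SE 0.54, limma, adjusted p = 0.403). GBF2 had 40.5, 56.2 and 29.7 FPKM in S2 against 72.3, 16.6 and 16.9 FPKM in S1, where S1 replicate 1 held the highest of all 12 values. Both overlapped between the groups in every comparison.

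The remaining light signaling genes had small or scattered differences, and they are named here after their values were seen. PTAC12, which acts in phytochrome signaling and plastid transcription, ranged from 14.2 to 64.7 FPKM, with the extremes in S2 replicate 1 and S1 replicate 3. SIGF, a plastid sigma factor, and Bo2g011750 and Bo8g118260, both annotated to far-red phototransduction, stayed within 1.89, 1.78 and 1.63 times their lowest value. PMI1, needed for chloroplast movement, was listed at 0 in 5 libraries, and AFR, an F-box protein of far-red signaling, in 8 libraries, among them all of S3_S. Both had their highest values in S1 replicate 1, S2 replicate 1 and S3_C replicate 2, between 2.48 and 4.67 FPKM. Bo8g101850, a B-box factor with the identifier AT2G21320, had 1.14, 1.43 and 1.54 FPKM in S3_S against 0.377, 0.770 and 0.478 FPKM in S1, without overlap.

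The 20 photoperiod genes, most of them regulators of chromatin, transcription or flowering, had a median highest-to-lowest ratio of 2.43 over the 19 without a value at 0, against 6.49 for the 14 genes annotated to circadian rhythm alone. In S3_S against S3_C, 17 of the 20 had a positive log2 difference with a median of 0.35, where 65.5% of all tested genes were positive with a median of 0.18, and after median-of-ratios scaling 13 of the 20 did, with a median of 0.14. In S3_C against S1, 5 of the 20 were positive with a median of -0.18, and after scaling 11 of the 20 were. Of all tested genes 37.4% were positive in that comparison as deposited, also with a median of -0.18. In S2 against S1 6 of the 20 were positive (42.9% of all tested genes), and in S3_C against S2 6 (36.8%). In S3_S against S2 14 of the 20 were positive (60.1% of all tested genes), and in S3_S against S1 15 (48.4%). SFR6, a Mediator subunit that acts in cold and clock-regulated transcription, had 12.9, 11 and 7.96 FPKM in S3_S against 7.88, 5.85 and 6.36 FPKM in S1. These groups did not overlap, by a margin of less than 0.1 FPKM between S3_S replicate 3 and S1 replicate 1. The log2 difference was 0.58 (SE 0.25, limma, unadjusted p = 0.0447, adjusted p = 0.824).

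Bo4g149570, with the identifier AT2G22370, had 4.21, 2.90 and 4.45 FPKM in S3_C against 4.70, 5.67 and 7.38 FPKM in S1, without overlap. Its log2 difference was -0.51 (SE 0.22, limma, unadjusted p = 0.0423, adjusted p = 0.220). After median-of-ratios scaling it was -0.30 (adjusted p = 0.364), and the groups overlapped. ATARP4, an actin-related protein of chromatin remodelling complexes and the most abundant named photoperiod gene, had 34.5, 44.6 and 39.9 FPKM in S3_S against 25.0, 20.8 and 37.9 FPKM in S3_C. These overlapped, with a log2 difference of 0.53 (SE 0.26, limma, adjusted p = 0.478).

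CDKD1, a kinase that activates cyclin-dependent kinases, and Bo8g037900, described as the histone demethylase JMJ18, had with GCR1 the smallest SD of log2(FPKM + 1), a scale on which the pseudocount shrinks the spread of a gene near 1 FPKM such as Bo8g037900. By the ratio of highest to lowest value Bo8g037900 (2.16) was less steady than 11 genes under 2, such as ARC5 (1.54), Bo8g118260 (1.63) and GI (1.68). CDKD1 lay between 6.12 and 10.5 FPKM and Bo8g037900 between 0.763 and 1.65 FPKM. The most variable photoperiod gene was Bo4g149900, described as AGAMOUS-like 17, a MADS-box promoter of flowering. It reached 16.8 FPKM in S1 replicate 2, 4.44 FPKM in S3_S replicate 2 and 6.69 FPKM in S3_S replicate 3, was at 0.451 FPKM in S1 replicate 3, and was listed at 0 or under 0.1 FPKM in the 8 other libraries.

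GAS41 and TAF14, YEATS domain proteins of chromatin and transcription complexes, were highest in S1 replicates 2 and 3. GAS41 had 3.72, 3.68 and 5.54 FPKM in S3_C against 4.19, 10.3 and 10.6 FPKM in S1. TAF14 had 0.0765, 0.169 and 0.587 FPKM in S3_C against 0.814, 2.72 and 1.94 FPKM in S1, without overlap. In S3_S the values of replicate 3 (9.02 FPKM for GAS41 and 1.85 FPKM for TAF14) also stood above those of the other S3_S libraries. These genes lie outside the rule for named genes and were chosen after their values were seen.

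The 14 genes annotated to circadian rhythm without a known place in the clock had the highest median ratio of highest to lowest value of any role (6.49). In 8 of 14 the ratio was at least 4. Among genes without a value at 0, this held for 6 of 13 light signaling, 4 of 19 photoperiod, 2 of 8 photoreceptor and 2 of 6 clock genes. The share of all tested genes was not computed. The genes with the largest SD (Bo2g009040, RVE2 and Bo4g149900) had other roles. COR78, a cold- and drought-induced gene also known as RD29A, was the most abundant of the set. It had 665, 897 and 515 FPKM in S3_S against 49.0, 111 and 74.6 FPKM in S1, and 159.8, 226 and 571 FPKM in S2. In S3_C it had 438, 69.6 and 341 FPKM, and replicate 2 lay inside the S1 range.

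COR78 averaged 692 ± 192 FPKM in S3_S and 78.2 ± 31.2 FPKM in S1 (SD, n = 3 each), a log2 difference of 3.17 (SE 0.69, limma, unadjusted p = 7.93e-04, adjusted p = 0.824). Every S3_S library was above every S1 library, and without single libraries the difference lay between 2.88 and 3.46. S2 and S1 differed by 1.88 on the log2 scale (SE 0.69, limma, unadjusted p = 0.0202, adjusted p = 0.403), also without overlap. For S3_S against S3_C the log2 difference was 1.62 (SE 0.69, limma, unadjusted p = 0.0387, adjusted p = 0.476), between 0.80 and 2.12 without single libraries. Scaling the libraries by the median of ratios ended the separation of S3_S from S3_C.

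PEX11E, a protein of peroxisome division, had 16.8, 54.7 and 19.7 FPKM in S3_C against 11, 3.92 and 4.07 FPKM in S1. The S3_C libraries were all higher than the S1 libraries and also than the S2 libraries, which had 7.78, 15 and 8.77 FPKM. In S3_S it had 26.6, 7.27 and 2.97 FPKM. The log2 difference of S3_C against S1 was 2.03 (SE 0.67, limma, unadjusted p = 0.0119, adjusted p = 0.213), and without S1 replicate 1 it was 2.45 (adjusted p = 0.0365). S1 replicate 1 was the S1 library nearest to S3_C, so the wider difference without it is built in. The fit without it called 23.1% of all tested genes.

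CCR1, a cinnamoyl-CoA reductase of lignin synthesis, had 10.7, 6.57 and 4.97 FPKM in S2 against 10.0, 25.8 and 32.9 FPKM in S1, and 20.3 FPKM in S3_S replicate 3 where the other S3_S libraries had 9.23 and 8.13 FPKM. S1 replicate 1 lay inside the S2 range. The table holds 3 more entries named CCR1 that are no members. The most abundant had 246, 61.1 and 48.3 FPKM in S2 against 38.9, 119 and 58.3 FPKM in S1. Those entries were matched by symbol alone, and whether they stand for the same gene was not checked. The other values given here are of the member entry alone. S2 and S1 differed by -1.41 on the log2 scale (SE 0.54, limma, unadjusted p = 0.0234, adjusted p = 0.403), and without S1 replicate 1 the difference was -1.90 (adjusted p = 0.0370). Leaving out the S1 library that lay inside the S2 range widens the difference by construction. The fit without it called 15.6% of all tested genes.

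The other genes of this kind are named here after their values were seen. ATFIM1, an actin-bundling fimbrin, had 8.04, 12.2 and 1.11 FPKM in S3_C, 1.54, 7.50 and 12.1 FPKM in S2, and 3.93, 0.464 and 0.159 FPKM in S1. Bo5g143440, a neutral invertase, reached 163 FPKM in S3_C replicate 2 and lay between 16.8 and 53.2 FPKM elsewhere. ARC5, a dynamin of chloroplast division, stayed between 17.3 and 26.6 FPKM. GATA1, a zinc finger factor, had 2.62, 2.77 and 3.44 FPKM in S3_S against 6.74, 3.87 and 3.52 FPKM in S3_C, and 2.28, 3.03 and 2.84 FPKM in S1. Every S3_C library was above every S3_S and every S1 library.

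**Figure D4:**
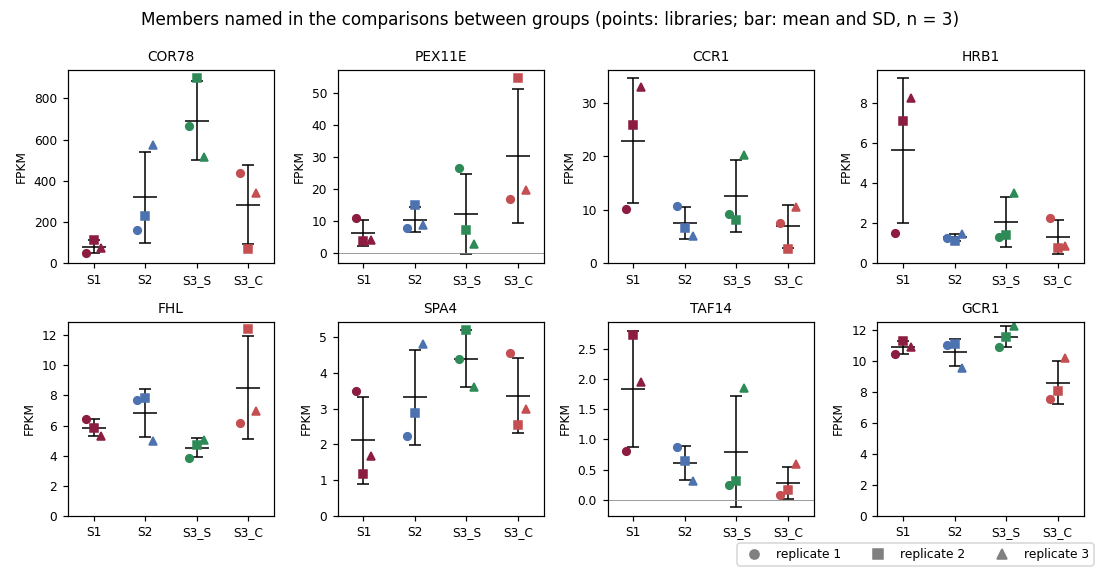
FPKM of 8 genes named in the comparisons, by group, with 1 point per library (shape gives the replicate number) and a bar for mean and SD (n = 3). S1 replicate 1 sits apart from the other S1 libraries in HRB1, CCR1 and TAF14, and the COR78 libraries of S3_S (515 to 897 FPKM) lie above those of S1 (49.0 to 111 FPKM).

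The 6 comparisons were each fitted over all 27272 tested genes. None of the 64 genes had an adjusted p under 0.05 in limma in any of them, and few genes of the whole table did. Because comparisons share groups, their values are not independent of each other. For counts without overlap under median-of-ratios scaling, the share of all tested genes was not computed. Those counts show only which of the 64 genes depend on the scaling.

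In S2 against S1, the greening leaf against the red leaf, 0 of the 64 genes were called, against 0.00733% of all tested genes, and the smallest adjusted p among them was 0.403. An unadjusted p under 0.05 was found for 4 of the 64 (6.25%), against 12.1% of all tested genes: Bo5g009990 and COR78 were higher, and CCR1 and HRB1 lower. Without overlap between the groups, 4 genes (6.25%, against 4.71% of all tested genes) were higher, namely Bo5g004560, Bo5g009990, Bo6g103970 and COR78, and 1 gene (1.56%, against 6.7%) was lower, namely HRB1. The median log2 difference was 0.00 over the 64 genes and -0.09 over all tested genes. Median-of-ratios scaling brought the median of all tested genes to 0.02 and that of the 64 genes to 0.12. Under it 4 genes were higher and 3 lower without overlap: Bo5g004560 and HRB1 overlapped, while GATA1 was then higher and TAF14, Bo7g109560 and CCR1 lower.

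In S3_S against S3_C, the green margin against the red center, 0 of the 64 were called, against 0.0% of all tested genes, with a smallest adjusted p of 0.476. An unadjusted p under 0.05 was found for 4 of the 64 (6.25%), against 10.4% of all tested genes: GCR1 and COR78 were higher, and PEX11E and FHL lower. Without overlap, 4 genes (6.25%, against 11.9%) were higher, namely Bo4g140290, GCR1, Bo2g009040 and COR78, and 3 genes (4.69%, against 4.85%) were lower, namely GATA1, Bo8g002920 and FHL. Under scaling 3 were higher and 4 lower: COR78 and Bo8g002920 overlapped, while RFI2 and Bo5g009990 were then lower without overlap. The median log2 difference was 0.17 over the 64 genes and 0.18 over all tested genes, and scaling brought these to 0.00 and 0.01.

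In S3_C against S2, 0 of the 64 were called, against 0.0% of all tested genes, with a smallest adjusted p of 1. An unadjusted p under 0.05 was found for 0 of the 64, against 1.23% of all tested genes. Without overlap, PEX11E alone was higher (1.56%, against 1.5%) and 0 genes were lower (against 2.55%). Under scaling PEX11E and WNK5 were higher and GCR1 lower without overlap. The median log2 difference was -0.12 over the 64 genes and -0.09 over all tested genes, and under scaling it was -0.02 over the 64 genes.

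In S3_S against S2, 0 of the 64 were called, against 0.0% of all tested genes, with a smallest adjusted p of 0.893. An unadjusted p under 0.05 was found for 0 of the 64, against 3.29% of all tested genes. Without overlap, 4 genes (6.25%, against 11.2%) were higher, namely Bo4g140290, Bo4g149900, ELF6 and Bo2g009040, and 4 genes (6.25%, against 4.63%) were lower, namely Bo5g009990, ARC5, Bo8g002920 and PMI1. Under scaling 3 were higher and 6 lower: Bo4g149900 overlapped, while GBF2 and FHL were then lower without overlap. The median log2 difference was 0.06 over the 64 genes and 0.10 over all tested genes, and under scaling the sign for the 64 genes turned, to -0.03, with 0.01 over all tested genes.

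In S3_C against S1, 0 of the 64 were called, against 0.00733% of all tested genes, with a smallest adjusted p of 0.213. An unadjusted p under 0.05 was found for 8 of the 64 (12.5%), against 21.9% of all tested genes: GATA1, PEX11E and COR78 were higher, and Bo4g149570, TAF14, GAS41, CCR1 and HRB1 lower. Without overlap, 2 genes (3.12%, against 5.28%) were higher, namely GATA1 and PEX11E, and 4 genes (6.25%, against 10.1%) were lower, namely Bo4g149570, Bo5g123510, GCR1 and TAF14. Under scaling 4 were higher and 2 lower: Bo4g149570, Bo5g123510 and GCR1 overlapped, while Bo5g009990 and Bo8g101850 were then higher and CCR1 lower without overlap. The median log2 difference was -0.03 over the 64 genes and -0.18 over all tested genes, and scaling brought these to 0.18 and 0.01.

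In S3_S against S1, 0 of the 64 were called, against 0.00733% of all tested genes, with a smallest adjusted p of 0.824. An unadjusted p under 0.05 was found for 3 of the 64 (4.69%), against 5.69% of all tested genes, and SPA4, SFR6 and COR78 were all higher. Without overlap, 6 genes (9.38%, against 5.74%) were higher, namely PHOT1;Bo3g118460, SPA4, PHYC, Bo8g101850, SFR6 and COR78, and FHL alone was lower (1.56%, against 3.81%). The median log2 difference was 0.09 over the 64 genes and -0.02 over all tested genes. Under scaling 4 were higher and 2 lower: PHOT1;Bo3g118460, SPA4 and SFR6 overlapped, while Bo2g077930 was then higher and Bo4g149570 lower without overlap.

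**Figure D5:**
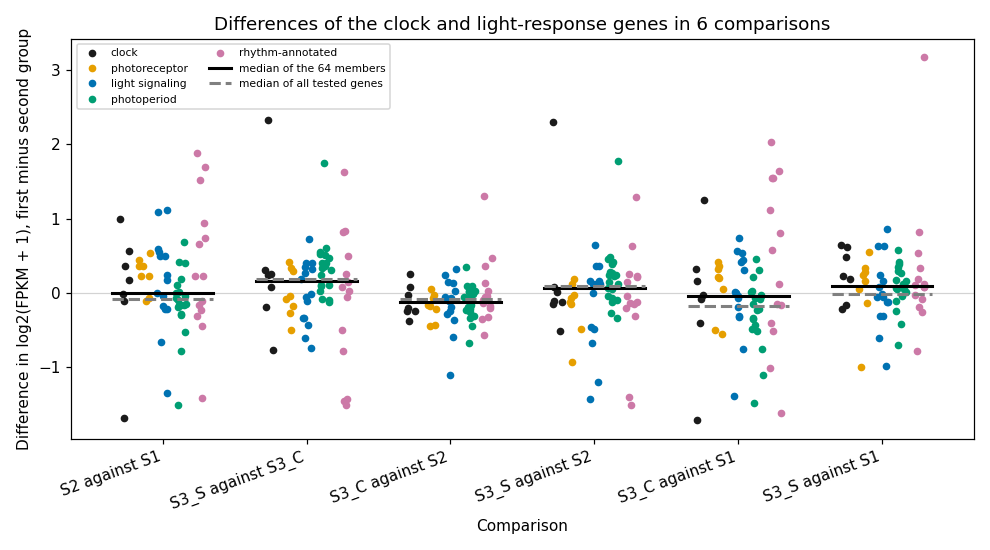
Difference in log2(FPKM + 1) of each of the 64 genes in the 6 comparisons (x axis, first group minus second group), colored by role, with the median of the 64 genes as a solid line and that of all tested genes as a dashed line. The medians lie between -0.18 and 0.18 in every comparison, and COR78 in S3_S against S1 (3.17) is the highest point.

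Calls among the 64 genes arose in the settings that left out S1 replicate 1, which leaves S1 with 2 libraries. This library and S3_S replicate 3 were singled out in these same data as unlike their groups. Calls made without them are therefore no independent support. In S2 against S1 6 of the 64 genes (9.38%) were then called, against 15.6% of all tested genes: ATATH13, a chloroplast ABC1-like kinase, WNK8, a kinase of the WNK family, and GBF2 rose, and GAS41, CCR1 and HRB1 fell. In S3_C against S1 8 of the 64 (12.5%) were called, against 23.1% of all tested genes: ATATH13, WNK8, PEX11E and Bo8g002920 rose, and TAF14, GAS41, CCR1 and HRB1 fell. In S3_S against S1 0 of the 64 were called, against 1.4% of all tested genes. ATATH13 had 40.8, 25.9 and 37.3 FPKM in S2 against 44.3, 12.0 and 9.37 FPKM in S1, and WNK8 had 16, 12.5 and 13.4 FPKM in S2 against 15.7, 8.35 and 7.85 FPKM in S1. In both, S1 replicate 1 stood at or above the S2 level and the other S1 libraries below it.

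With S3_S replicate 3 left out as well, 7 of the 64 genes (10.9%) were called in S2 against S1, against 19.0% of all tested genes, and TAF14 was added to those that fell. In S3_C against S1 8 of the 64 (12.5%) were called, against 25.1% of all tested genes. In S3_S against S1 3 of the 64 (4.69%) were called, against 11.3% of all tested genes: SPA4 rose, with a log2 difference of 1.27, and TAF14 and HRB1 fell, with log2 differences of -1.38 and -1.89. In each of these fits the share called among the 64 genes was below that among all tested genes.

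Some marker genes of other cell types were high in the same libraries. Of the vascular markers 2 of 7 were found (XCP1 and CESA8), of the epidermal markers 2 of 6 (CER1 and CUT1), of the dividing cell markers 5 of 6, with the cell plate syntaxin SYP111 near 0, and of the green leaf markers 4 of 7. The summed level of the vascular markers was 4.22 and 6.80 FPKM in S1 replicates 3 and 2 and 9.10 FPKM in S3_S replicate 3, and between 0.261 and 1.29 FPKM in the other 9 libraries. The epidermal sum was 187 and 224 FPKM in the same S1 libraries and 225 FPKM in S3_S replicate 3, and between 6.25 and 127 FPKM elsewhere. That sum is nearly all CER1, and CUT1 did not follow it, with 0.552 and 0.492 FPKM in S1 replicates 2 and 3 and 0.367 FPKM in S3_S replicate 3, and its highest values of 2.76 FPKM in S2 replicate 2 and 1.59 FPKM in S1 replicate 1. The dividing cell sum was 35.4 and 50.3 FPKM in S1 replicates 2 and 3 and 32.5 FPKM in S3_S replicate 3, and between 11.7 and 28.6 FPKM elsewhere. Its most abundant gene, CYC1, was not highest in these libraries (14.5, 19.5 and 21.3 FPKM, against 27.8 FPKM in S2 replicate 3 and in S3_C replicate 2). PCNA1, CDC2B and CDKB2 were: PCNA1 had 9.10, 12.2 and 5.37 FPKM in them and at most 0.759 FPKM elsewhere. The green leaf sum was 1998 to 5862 FPKM in S2, S3_S and S3_C, against 4535 FPKM in S1 replicate 1 and 664 and 633 FPKM in S1 replicates 2 and 3. HRB1, CCR1, TAF14 and GAS41 were highest in these same 3 libraries, and the part of cell makeup in their differences was not tested.

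The 14 entries under the level filter included the photoperiod gene CONSTANS (CO), which lay between 0.0871 and 0.701 FPKM over the 12 libraries, and PHYE, which lay between 0.428 and 0.832 FPKM in 11 libraries and reached 2.43 FPKM in S3_C replicate 2. An entry of EID1, an F-box gene of phytochrome A signaling, was listed at 0 in 11 libraries and had 78.4 FPKM in S2 replicate 1. A further entry of EID1 was listed at 0 in that library, so reads may be split between the entries and neither gives the level of the gene. An entry of HAM3 was likewise at 0 in 11 libraries and had 17.3 FPKM in S3_S replicate 3. The others were ANAC040, NUC, GATA7, LEC1, ATHB52, XTH3 and 4 loci without an informative name. The 10 entries left out by an excluded term were CRY1, ELIP2, STN7, LHCA6, LHCB4.1, SHW1, GPA1, PTAC16 and 2 loci without an informative name.

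Lists of textbook clock, photoreceptor, light signaling and photoperiod genes matched 9 of 29, 5 of 11, 14 of 29 and 3 of 9 genes in the table by symbol or Arabidopsis identifier. Outside the 64 genes, 17 matched entries were tested, and 0 were called in any comparison. Counts at an unadjusted p under 0.05 in limma follow, each with the share of all tested genes in either direction. In S2 against S1 2 were higher (12.1%), and in S3_S against S3_C 2 were higher and 1 lower (10.4%). In S3_C against S2 there were 0 (1.23%), and in S3_S against S2 1 was higher (3.29%). In S3_C against S1 2 were higher (21.9%), and in S3_S against S1 1 was higher (5.69%). Counts of the 17 without overlap follow, each with the share of all tested genes in the same direction. In S2 against S1 2 were higher (4.71%), and in S3_S against S3_C 3 were higher (11.9%) and 1 lower (4.85%). In S3_C against S2 1 was higher (1.5%), and in S3_S against S2 2 were higher (11.2%). In S3_C against S1 1 was higher (5.28%) and 1 lower (10.1%), and in S3_S against S1 2 were higher (5.74%). The following were chosen after their values were seen. The LHY locus Bo5g002760, the partner of CCA1, had 2.77, 1.09 and 1.09 FPKM in S2 against 0.741, 0.591 and 0.203 FPKM in S1, without overlap, a log2 difference of 0.77 (SE 0.32, limma, adjusted p = 0.403). CIP7, a COP1-interacting protein, had 18.7, 30.0 and 23.0 FPKM in S3_S against 8.24, 4.12 and 15.2 FPKM in S3_C, without overlap, a log2 difference of 1.42 (SE 0.35, limma, adjusted p = 0.476). SPA2, a relative of SPA4, had 12.9, 13 and 12.2 FPKM in S3_S against 7.31, 4.97 and 10.3 FPKM in S3_C, again without overlap.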

How the data were processed

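Poly(A) RNA of kale leaf tissue was sequenced in paired-end reads in 12 libraries, per the labels' protocols. The authors deposited FPKM per gene and library, with 3 libraries in each of 4 groups. HISAT2 2.0, StringTie 1.3.0 and Bowtie 0.12.2 are named in the submitters' processing notes without their roles. The build and annotation used are not stated in those notes. StringTie can split or merge loci, which divides or adds up their values.

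The deposited FPKM were put on the scale log2(FPKM + 1), and limma 3.58.1 (R 4.3.3) was run over the 27272 genes that reached 1 FPKM in 3 or more libraries. The fit had group means, all 12 libraries and eBayes with a trend, tests were two-sided, and calls were made at a Benjamini-Hochberg adjusted p under 0.05, taken over all tested genes of a comparison. Log2 differences on this scale understate changes of low genes. The fit was tested on simulated data in which values were drawn independently for each library. No simulated library stood apart from its group, so that test does not cover libraries such as S1 replicate 1.

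The members, gene lists and tests were chosen with earlier results of these data known, and roles were given after the gene names were seen. The rule for named genes took GI, members on the pathway lists, the 5 most abundant named members, the clearest non-overlapping members at an unadjusted p under 0.05, and the 3 with the largest and smallest SD. Alternatives were a pseudocount of 0.1, no filter, median-of-ratios scaling, fits of only the groups compared, the replicate number as a block, and leaving out libraries.

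Replicate numbers were checked as pairs through the correlation of deviations from group means. Same-numbered libraries of S3_S and S3_C correlated between 0.158 and 0.268, over 0.1 in 3 of 3 pairs, and the other comparisons did not reach this in every pair. Other-numbered libraries of S3_S and S3_C correlated between -0.243 and 0.0129. The SE and p-values given above for S3_S against S3_C come from fits that leave this pairing out. No sequences are printed, and 0 gene names of the table matched the RefSeq gene table.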

Additional observations from a re-analysis of the deposited data

How the results depend on the processing

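The count of called members was 0 in all 6 comparisons under a pseudocount of 0.1, without a filter, under median-of-ratios scaling, in fits of only the 2 groups compared, and with the replicate number as a block. With the replicate block in the 6 libraries of S3_S and S3_C alone, a setting chosen after seeing the data, 0 were called and the smallest adjusted p was 0.284, against 0.476 in the fit of all 12 libraries without the block. Leaving out single libraries gave 0 to 6 called members in S2 against S1, 0 to 8 in S3_C against S1 and 0 in the other comparisons, and every call came without S1 replicate 1. Without S1 replicate 1 and S3_S replicate 3 together, 7 members were called in S2 against S1, 8 in S3_C against S1 and 3 in S3_S against S1, and 0 in the other comparisons. The share called among all tested genes moved with these libraries too, and the cause was not tested. No log2 difference followed for the 11 named gene and comparison pairs turned round under these settings.

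With 3 libraries a group and no read counts, no counting error can be given for low genes such as CCA1 and PHYC, and values listed at 0 and genes held in more than 1 entry, such as EID1, give no sure level. The time of day of sampling is not in the labels, and its part in the spread between libraries was not tested.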
